A study of Homo sapiens with 12 samples.

Results

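T cell checkpoint ligands were followed across 6 clones of the human line PC9, a lung adenocarcinoma whose growth depends on a mutant EGFR and which is used to study the EGFR inhibitor gefitinib. The 7 genes were VTCN1 (B7-H4), CD274 (PD-L1), CD276 (B7-H3), PVR (CD155), CD47, LGALS9 (galectin 9) and ICOSLG. They were taken by name, and the set was chosen by the array signal of VTCN1, which was absent in the gefitinib-sensitive clone and high in every tolerant clone. For all 7 genes the difference between tolerant clones and B7 is therefore given below as a description, with no p-value, and nothing is read from it. The array carried 14 probes for these genes, of 30112 probes with 1 assigned gene, and 5 of the 7 genes were among the 12250 genes bright enough to be tested (of 20045 with a probe).

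Each clone was grown from 1 sorted cell. The tolerant clones were D6, E1, E2, E3 and E6, and the sensitive clone was B7, each measured on 2 arrays, so that the sensitive state is represented by 1 clone. Every sample carries the same treatment text, gefitinib at 0.4 to 2 µM for 14 days, and the labels do not settle whether B7 received the drug or its solvent. Response and exposure cannot be told apart. The 2 arrays of a clone are not said to come from separate cultures, so p-values from arrays measure only the spread between them, which may be technical.

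As background, T cells need a signal through their antigen receptor and a second one from paired surface molecules of the B7 and related families. ICOSLG gives a stimulating second signal through ICOS. CD274 restrains T cells through PD-1, and VTCN1 and CD276 restrain them through receptors that are less well defined. PVR binds the inhibitory receptor TIGIT and the activating receptor CD226, CD47 signals to SIRPA on macrophages that a cell should not be engulfed, and LGALS9 is a secreted lectin that binds TIM-3. In lung adenocarcinoma these molecules are studied as routes by which tumour cells avoid immune attack. Cultured clones were measured here with no immune cells added, and in such bulk RNA a larger share of expressing cells and more RNA per cell cannot be told apart.

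The promoters of the 3 genes the results turn on are shown for context, each as 250 bases before and 50 bases after the start site in RefSeq (GRCh38.p14), 5′ to 3′ on the gene's own strand. VTCN1 and CD47 were higher in all tolerant clones, and CD274 was not detected. Capitals mark matches on either strand to 3 motifs: AP-1 (TGANTCA), the STAT element GAS (TTCNNNGAA) and the interferon element ISRE (GAAA, any 2 bases, GAAA). VTCN1 lies at chr1:117210878-117211177 (minus strand), CD47 at chr3:108090982-108091281 (minus strand) and CD274 at chr9:5450292-5450591 (plus strand).
VTCN1: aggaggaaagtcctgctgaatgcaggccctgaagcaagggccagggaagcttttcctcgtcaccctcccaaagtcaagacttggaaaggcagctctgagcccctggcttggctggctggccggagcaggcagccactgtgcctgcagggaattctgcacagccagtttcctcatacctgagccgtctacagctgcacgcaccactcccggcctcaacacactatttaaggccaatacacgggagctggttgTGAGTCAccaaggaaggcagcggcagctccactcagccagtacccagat
CD47: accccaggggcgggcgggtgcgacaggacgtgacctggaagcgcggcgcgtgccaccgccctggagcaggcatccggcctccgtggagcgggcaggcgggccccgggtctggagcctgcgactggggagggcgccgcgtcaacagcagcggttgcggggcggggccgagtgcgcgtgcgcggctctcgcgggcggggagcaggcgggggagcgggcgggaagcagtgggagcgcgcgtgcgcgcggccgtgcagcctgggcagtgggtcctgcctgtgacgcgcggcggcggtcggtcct
CD274: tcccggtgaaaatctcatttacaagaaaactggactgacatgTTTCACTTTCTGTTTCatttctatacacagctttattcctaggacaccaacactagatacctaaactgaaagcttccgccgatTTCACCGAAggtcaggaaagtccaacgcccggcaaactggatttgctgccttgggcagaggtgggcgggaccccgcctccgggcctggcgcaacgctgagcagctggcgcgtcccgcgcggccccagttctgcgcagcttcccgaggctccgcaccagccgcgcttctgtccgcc
The VTCN1 window held 1 AP-1 match, which reads on both strands and begins at base 2 of the transcript. An AP-1 match stood in 7.71% of 35116 promoters of this length. The CD274 window held 1 GAS match that also reads on both strands, 125 bases before the start site, and a pair of overlapping ISRE matches 208 and 202 bases before it. Of all promoters, 7.66% held a GAS match and 3.57% an ISRE match. The CD47 window held no match to these letters. The windows also differed in CpG dinucleotides, with 7 in VTCN1, 45 in CD47 and 22 in CD274, against a median of 14 over all promoters. Among the other members, LGALS9 had an ISRE match 9 bases before its start site and only 2 CpG dinucleotides, while ICOSLG, PVR and the 2 CD276 windows held 42, 27, 37 and 28 and no match to the 3 motifs. A match is a run of letters and not a measured binding site.

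VTCN1 (probe ILMN_1753101) gave a scanner signal, background already subtracted, of 3886 and 3538 intensity units for D6, 4543 and 4545 for E1, 609 and 593 for E2, 1685 and 1498 for E3, and 1989 and 1997 for E6, against -19.8 and -14.5 in B7. All 10 tolerant arrays detected it and neither B7 array did, where detection means a signal above 2.33 times the noise of the array (20.1 to 24.1 units over the 12 arrays). This pattern, 10 of 10 tolerant arrays and 0 of 2 B7 arrays, occurred in 136 of the tested genes (1.11%). After normalization VTCN1 averaged 11.11 ± 1.3 log2 units in the tolerant clones (SD, n = 5 clones) and 4.64 in B7, a value that reflects the background correction. With B7 set to the lowest detected value on each of its arrays, the tolerant clones were at least 35.7-fold higher. Clone by clone the lower bound was 83.1-fold in E1, 79.5-fold in D6, 35.7-fold in E6, 26.6-fold in E3 and 9.32-fold in E2. In the authors' processed values VTCN1 stood at the floor of 20 on both B7 arrays and at 595 to 6330 on the tolerant arrays. With the B7 value below background, the difference without this bound depended on the treatment of the background, from 5.26 log2 units with an offset of 50 to 7.07 without correction.

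CD274, the ligand of PD-1, whose protein is the usual marker for immunotherapy in this tumour type, was not detected on any array. Its single probe read between -13.4 and 4.15 units on the tolerant arrays (median -6.48), against 11.2 and 14.2 in B7, where the detection limits were 24.1 and 23.7. Both groups lay below the limit, so no fold is given. A single dim probe does not show that the transcript was absent. LGALS9 was likewise at the background. One of its probes (ILMN_1715760) was detected on 0 of 12 arrays and the other (ILMN_2412214) on 3 tolerant arrays of 3 different clones, with 3.72 to 29.3 units on the tolerant arrays and 5.60 and 17.7 in B7. Transcripts of LGALS9B and LGALS9C are nearly identical to LGALS9, so its probes may not separate them. Neither CD274 nor LGALS9 reached the filter for testing, which asks for both arrays of at least 1 clone above the limit.

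**Figure D1:**
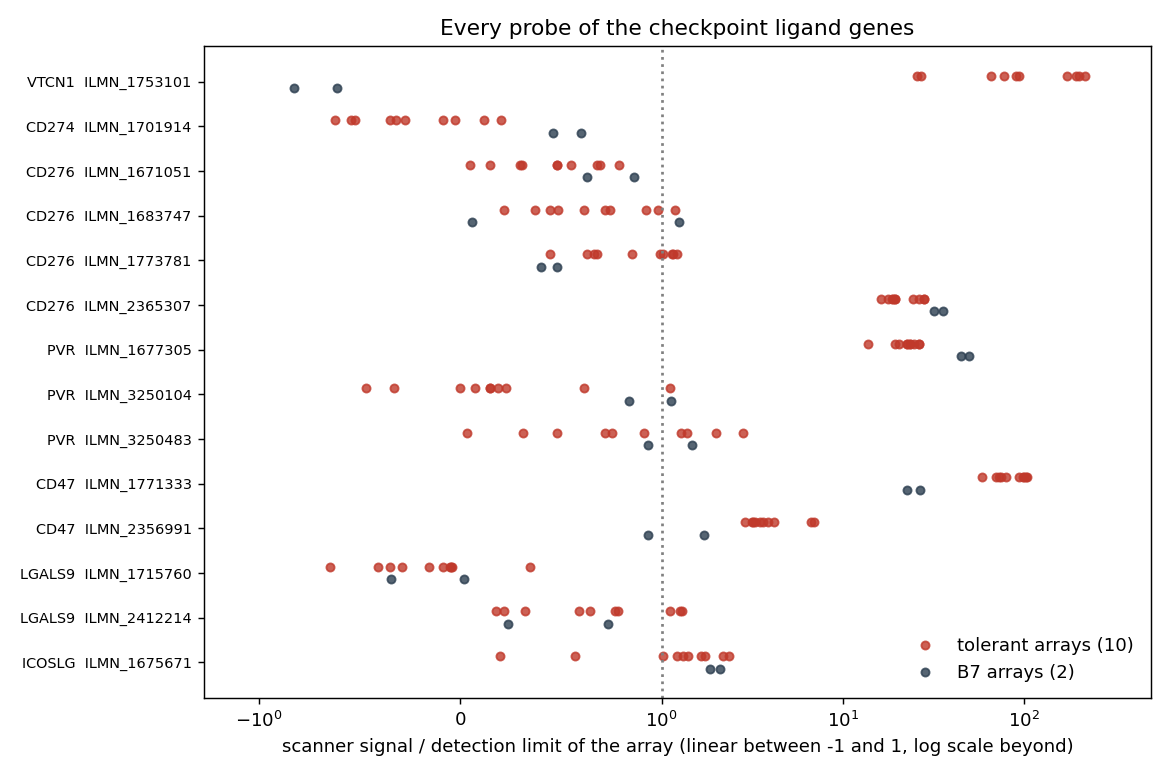
Scanner signal of each of the 14 probes divided by the detection limit of its array (horizontal axis, linear between -1 and 1 and logarithmic beyond), with the 10 tolerant arrays in red and the 2 B7 arrays in dark blue; the dotted line is the limit. The VTCN1 probe is far right of the line on the tolerant arrays and left of 0 in B7, and the CD274 probe is left of the line on all 12.

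CD47, which signals against engulfment, was higher in every tolerant clone. Its main probe (ILMN_1771333) gave 1504 and 1489 units for D6, 2137 and 2328 for E1, 1598 and 1348 for E2, 2156 and 2249 for E3, and 1973 and 1760 for E6, against 547 and 630 in B7. All 12 arrays detected it and the groups did not overlap. The normalised level averaged 10.98 ± 0.36 log2 units in the tolerant clones (SD, n = 5) and 8.92 in B7, a difference of 2.06 ± 0.34 (SE), or 4.17-fold. Against B7 the single clones were higher by 2.41 in E1, 2.24 in E3, 2.10 in D6 and in E6, and 1.46 in E2. A second probe (ILMN_2356991) differed in the same direction by 0.97 ± 0.31. It read 59.1 to 153 units on the tolerant arrays (median 80.2), against 22.5 and 40.6 in B7, the first of which lay under the limit, so the size of that difference rests partly on background.

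PVR, the ligand of TIGIT and CD226, was lower in every tolerant clone at its main probe. This probe (ILMN_1677305) read 8.59 to 9.35 log2 units on the 10 tolerant arrays (median 9.22), against 9.77 and 9.87 in B7, and the groups did not overlap. The means were 9.12 ± 0.25 in the tolerant clones (SD, n = 5) and 9.82 in B7, a difference of -0.69 ± 0.27 (SE), or 1.62-fold lower. By clone the difference from B7 ran from -0.50 in E3 and -0.51 in D6 through -0.59 in E1 and -0.76 in E2 to -1.11 in E6. Scaling each array to its median instead of equalizing all distributions moved the median difference of all genes to -0.20 and gave -1.06 for PVR. The other PVR probes, both near the background, were detected on 2 and 5 arrays and differed by -0.49 and -0.06. The second of them (ILMN_3250483) read 59.0 and 44.8 units in E1, both detected, against 22.5 and 34.7 in B7. On it E1 stood 0.56 log2 units above B7 and D6 0.05 above, while E3, E2 and E6 differed from B7 by -0.05, -0.34 and -0.50.

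CD276 stood near its B7 level in E1 and E3 and below it in D6, E6 and E2. Its main probe (ILMN_2365307) read 8.60 to 9.53 log2 units on the tolerant arrays (median 9.17), against 9.28 and 9.39 in B7, inside that range. By clone the difference from B7 was 0.06 in E1, 0.02 in E3, -0.17 in D6, -0.56 in E6 and -0.65 in E2. The difference between the group means was -0.26 ± 0.32 (SE), and its size followed the scaling. Before normalization the scanner signal was 342 to 628 units on the tolerant arrays, against 769 and 845 in B7. Median scaling gave -0.64 for the group means. The B7 arrays were also the brightest, with a 75th percentile of 80.1 to 118 units over all probes on the tolerant arrays, against 130 and 133 in B7. The part of this brightness in the CD276 value was not tested beyond the 2 scalings. The other 3 CD276 probes were detected on 0, 2 and 4 of the 12 arrays.

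ICOSLG, the ligand of ICOS that gives a stimulating second signal, was dim in all clones. Its probe (ILMN_1675671) gave 4.0 and 21.0 units for D6, 25.3 and 12.7 for E1, 49.3 and 54.7 for E2, 35.5 and 31.8 for E3, and 27.6 and 38.3 for E6, against 44.7 and 49.9 in B7. It was detected on 8 of 10 tolerant arrays and on both B7 arrays. The groups overlapped, with a difference of -0.22 ± 0.28 log2 units (SE), and values this close to the limit carry little information on fold.

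**Figure D2:**
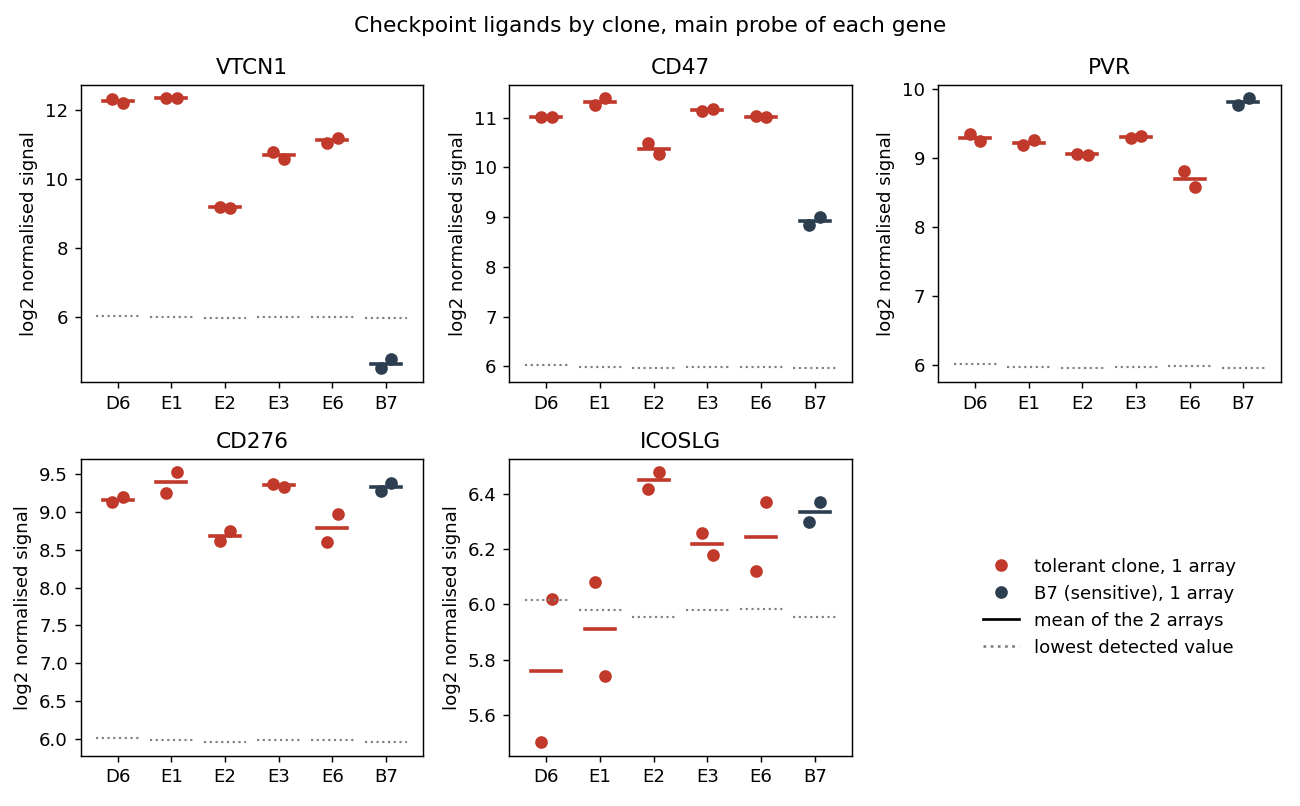
Normalised log2 signal of the main probe of the 5 tested genes (vertical axes, which differ between panels) in the tolerant clones D6, E1, E2, E3 and E6 (red) and in B7 (dark blue); points are arrays, bars the mean of 2 arrays, dotted lines the lowest detected value. VTCN1 and CD47 lie above B7 in all 5 tolerant clones, PVR lies below B7, and CD276 and ICOSLG overlap with B7.

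In the fit across all 12250 genes (limma on 6 clone means), 1.40% of genes passed the threshold as higher in the tolerant clones and 1.44% as lower. VTCN1 and CD47 were among the higher genes, and 0 members were among the lower ones. The choice of the genes rests on this contrast, so their place there is no test of it. With any 1 tolerant clone left out, CD47 stayed 1.97 to 2.21 log2 units above B7. It passed the threshold without E2 and missed it without D6, E1, E3 or E6. Counted by arrays, the 10 tolerant arrays lay above both B7 arrays for VTCN1 and CD47, as for 20.7% of all genes. They lay below both for PVR, as for 22.1%. Of the 25 differences between a tolerant clone and B7 over the 5 members, which share the B7 arrays, 11 reached 1 log2 unit, namely VTCN1 and CD47 in all 5 clones and PVR in E6. A difference of that size was found for 19.4% of all genes in D6, 22.1% in E1, 7.0% in E2, 15.4% in E3 and 16.6% in E6, and the VTCN1 values among the 11 are those the choice rests on.

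The rule that chose the genes did not use the differences between the tolerant clones, so these could be tested. Earlier results of these data were known when the genes were chosen, which limits these p-values. VTCN1 varied most. Its clone means were 12.33 in E1, 12.26 in D6, 11.11 in E6, 10.68 in E3 and 9.17 in E2 (log2 units), a range of 3.16, or 8.92-fold (moderated F test in limma over all 12 arrays, adjusted p = 2.73e-08). The difference between E1 and D6 was within the SD of the D6 arrays, 0.08, although no neighbours in this order had overlapping arrays. Without E2 the range was 1.64. A range as wide as that of VTCN1 or narrower was found in 99.5% of the tested genes. Set against the mean of the other 4 tolerant clones, E2 was lower by 2.42 ± 0.09 log2 units (SE, limma adjusted p = 9.9e-09), E1 higher by 1.52 ± 0.09 (adjusted p = 5.99e-07) and D6 higher by 1.44 ± 0.09 (adjusted p = 8.22e-07). Without E2 the differences of E1 and D6 from the remaining clones were 0.98 and 0.89. E3 was lower by 0.53 ± 0.09 (limma adjusted p = 0.00123), a call that ended without D6 or without E1 (-0.19 and -0.16) and was -1.22 without E2. E6 stood at the mean of the others.

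CD47 varied less, by 0.95 log2 units between E1 (11.33) and E2 (10.38) (limma F test, adjusted p = 7.2e-05). E2 was again the lowest, by 0.75 ± 0.07 below the other 4 (limma adjusted p = 1.15e-05), and E1 the highest, by 0.43 ± 0.07 above them (limma adjusted p = 0.000878), or 0.26 without E2. The second probe gave another order, with E3 highest, 0.68 above the other 4 (limma adjusted p = 0.000449), and E1 0.05 above them (limma adjusted p = 0.672). E2 had the lowest mean on that probe too, at 6.82 log2 units and 0.29 below the other 4 (limma adjusted p = 0.0201), beside 6.84 in E6. The arrays of E2 (6.83 and 6.80) and E6 (6.79 and 6.90) overlapped there, so that probe does not separate these clones. With the mean of both probes E3 stood 0.45 and E1 0.24 above the others, so the place of E1 and E3 depends on the probe. On the main probe D6 and E6 did not differ beyond their spread, at 11.02 each, and the arrays of the other neighbours in the order did not overlap. Without E2 the range narrowed to 0.31 and still passed the F test. E2 was the lowest tolerant clone for VTCN1, CD47 and CD276, as it was for 26.8% of all tested genes.

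PVR ranged over 0.61 log2 units (limma F test, adjusted p = 0.000739), with E6 below the other 4 by 0.52 ± 0.07 (limma adjusted p = 0.00043), while neighbouring arrays overlapped among E3, D6 and E1. Without E6 the PVR range was 0.26. On the second PVR probe (ILMN_3250483), near the background, E1 was highest, 0.76 above the other 4 (limma adjusted p = 0.000838). E6 and E2 were lowest there, by 0.55 and 0.36 (limma adjusted p = 0.00898 and 0.037), each detected on 0 of 2 arrays. On the main probe E1 stood 0.13 above the others (limma adjusted p = 0.159). CD276 ranged over 0.71 (limma F test, adjusted p = 0.00136), and its clones fell in a higher pair with overlapping arrays, E1 and E3 at 9.40 and 9.36, and a lower pair with overlapping arrays, E6 and E2 at 8.78 and 8.69. Against the other 4, CD276 was higher in E1 by 0.40 ± 0.10 and lower in E2 by 0.49 ± 0.10 (limma adjusted p = 0.00925 and 0.00223). The E1 call of CD276 ended without E2 (0.29) and without the second E1 array (0.26). ICOSLG ranged over 0.69 (limma F test, adjusted p = 0.018), highest in E2 at 6.45 and lowest in D6 at 5.76. The ICOSLG range was 1.31 in the authors' values, and its call ended without E2, without the second E2 array and without the filter on dim probes.

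**Figure D3:**
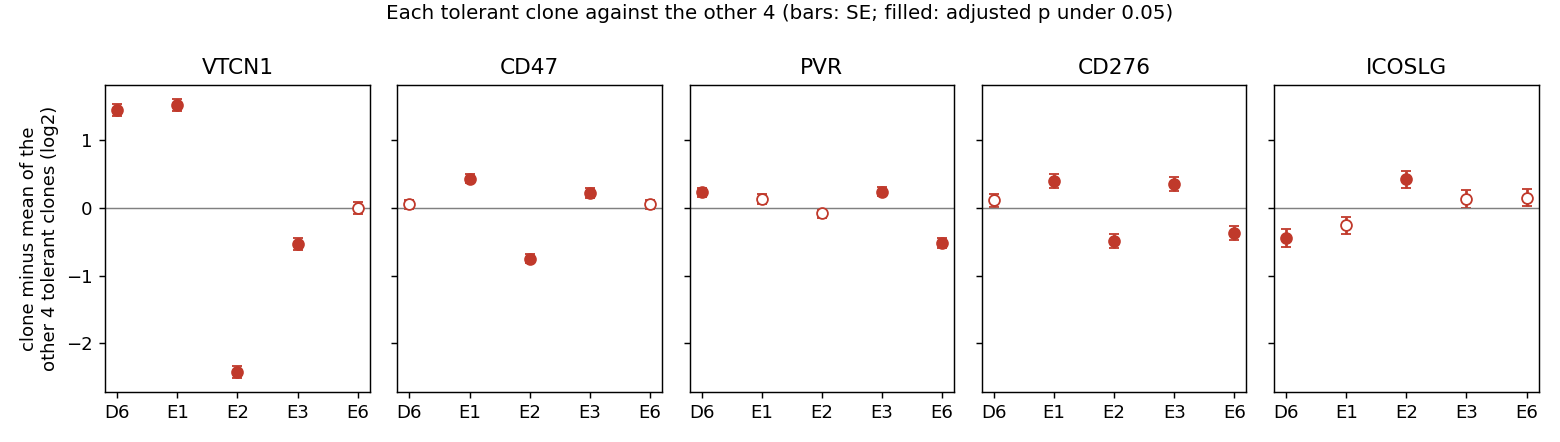
Difference of each tolerant clone from the mean of the other 4 (vertical axis, log2 units) for the 5 tested genes; bars are SE from the fit of 12 arrays and filled circles have an adjusted p under 0.05. VTCN1 spreads from -2.42 in E2 to 1.52 in E1, and the other 4 genes stay within 0.75 of 0.

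These calls stand against a high background. The arrays of a clone agreed closely (Pearson r across genes, which are not independent, of 0.995 to 0.997), and the part of this in the number of calls was not tested. All 5 tested members passed the F test, as did 73.0% of all genes. When a range of at least 1 log2 unit was also asked for, 1 of the 5 passed, VTCN1, against 19.2% of all genes. For single clones against the other 4, D6 had 3 calls among the 5 members (background 38.0%), E1 had 3 (46.3%), E2 had 4 (53.2%), E3 had 4 (31.7%) and E6 had 2 (32.9%). Over the 20 comparisons of the clones other than E2, 12 were called, and 8 were called when E2 was left out of the fit. When the difference also had to reach 1 log2 unit, VTCN1 was called for D6 (background 2.60%), E1 (2.70%) and E2 (6.68%) and no other member was. Without E2 the values of D6 and E1 lay under that size, so both calls rest on the low level in E2. For E3 and E6 there were 0 such calls (background 1.36% and 1.54%).

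The pattern over the clones placed VTCN1 beside a few other genes. Over the 6 clone means, among 2441 genes with an SD of at least 0.5 log2 units, those most alike were the retinol dehydrogenase gene DHRS3 (Pearson r = 0.9986), the Mediator kinase gene CDK19 (0.9985), VSIR (0.9959) and FHIP2A (0.9956). CD47 was most alike to the beta-defensin gene DEFB1 (0.9975) and to PLPP6 (0.9949). PVR was most alike to ADAM19 (0.9645) and AKAP12 (0.9596), CD276 to TFPI2 (0.9295) and CMTM3 (0.9097), and ICOSLG to PCNA (0.9844) and POLE2 (0.9834). Between members, VTCN1 and CD47 correlated at 0.98 and each of them with PVR at -0.64 and -0.67. All these values are descriptions over 6 points, which for VTCN1 and CD47 rest largely on the distance of B7 from the rest.

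In 8 lists of related genes, 67 of 116 listed genes were tested between tolerant clones and B7, and 4 were higher and 1 lower (7.46%, against 2.83% of all genes in either direction). The lists were drawn up with earlier results of these data known, so this share is a description and no test of the lists. With 1 sensitive clone, a gene that missed the threshold is not shown to be unchanged. Each SE and p-value against B7 takes its spread from the tolerant clones alone, and B7 is assumed to vary like them. A call therefore cannot tell the sensitive state from a trait of the clone B7. The median difference of the 67 was 0.21 log2 units, against 0 over all genes. Among other B7 and butyrophilin genes 1 of 9 rose and 0 fell (median 0.55). This was VSIR, which encodes the inhibitory ligand VISTA: 9.08 ± 0.43 log2 units in the tolerant clones (SD, n = 5) and 7.02 in B7, higher by 2.06 ± 0.39 (SE, limma adjusted p = 0.047). By clone it was higher than B7 by 2.44 in E1, 2.35 in D6, 2.14 in E6, 2.04 in E3 and 1.34 in E2. Among nectins and CADM1, 0 of the 4 tested genes passed, though all 4 means were above B7 (median 0.49). CADM1 was not detected on any array and was not tested. NECTIN2 was the farthest, by 0.89 ± 0.41 (limma adjusted p = 0.225), and its other probes differed by 1.14 and 0.62.

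Among the partners of CD47 and other phagocytosis signals 0 of 8 passed (median 0.14). The largest difference was that of CD24, another surface signal against engulfment, with 13.43 ± 0.71 log2 units in the tolerant clones (SD, n = 5) and 10.84 in B7. CD24 differed by 2.59 ± 0.61 (SE, limma adjusted p = 0.0704), was 1.33 above B7 in E2 and at least 2.82 above it elsewhere, and passed without E2 at 2.90. Among the other galectins 1 of 6 rose, LGALS3 (galectin 3), by 2.31 ± 0.44 to 11.04 ± 0.49 in the tolerant clones, against 8.73 in B7 (limma adjusted p = 0.0465). A dimmer LGALS3 probe, detected on 4 arrays, differed by 0.37. Of 15 other ligands for T and NK cells 0 passed (median 0.18). The widest was TNFRSF14 (HVEM, the ligand of BTLA), at 1.22 ± 0.82 (limma adjusted p = 0.387), with 2.47 above B7 in E1 and -0.12 in E3.

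Among soluble and metabolic suppressors of T cells 1 of 7 fell and 0 rose (median 0.25). NT5E, the enzyme CD73 that makes adenosine, was 7.78 ± 0.28 log2 units in the tolerant clones (SD, n = 5) and 10.01 in B7, a difference of -2.23 ± 0.28 (SE, limma adjusted p = 0.0162). Clone by clone it lay between -1.89 and -2.53. Of 15 genes that regulate CD274 transcription or PD-L1 turnover 2 rose (median 0.13). They were the interferon gamma receptor chain IFNGR1, by 2.47 ± 0.47 (limma adjusted p = 0.0466), and the transcription factor IRF1, by 1.89 ± 0.36 (limma adjusted p = 0.0483). The single CD274 probe stayed below detection in the same clones. Of 18 listed immune cell receptors of checkpoint ligands, not all of them receptors of the members, 17 had a probe. PDCD1, the gene of PD-1, had none. Of the 18, 3 were bright enough to test and 0 passed. The largest difference was -0.38 ± 0.24 for CD28 (limma adjusted p = 0.354), detected on 5 of 12 arrays. Without D6, E1 or E6 the only one of these 5 calls that remained was NT5E, and without E3 only IRF1.

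**Figure D4:**
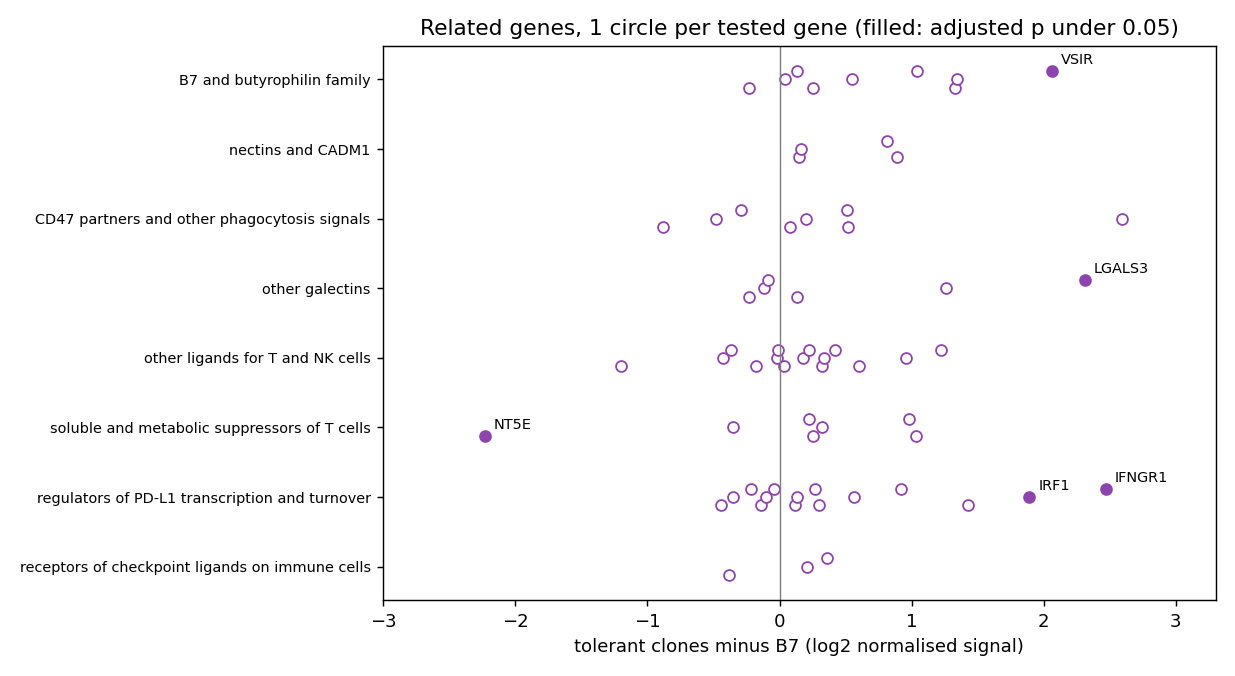
Difference between tolerant clones and B7 (horizontal axis, log2 units) for the 67 tested genes of the 8 lists of related genes, 1 circle per gene, filled where the adjusted p was under 0.05. VSIR, LGALS3, IFNGR1 and IRF1 are filled on the right, at 1.89 to 2.47, and NT5E on the left, at -2.23.

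The epithelial label was borne out by EPCAM, CDH1, KRT7, KRT8, KRT18 and KRT19, each detected on all 12 arrays. Of the leukocyte markers, PTPRC, CD3D, CD3E, CD3G, CD8A, NCR1, KLRD1, NKG7 and FCGR1A were detected on 0 arrays. Of 17 leukocyte markers with a probe 8 were detected on at least 1 array, among them CD79B, CD14 and CSF1R on all 12. The summed signal of the list was 472 to 851 units on the tolerant arrays, against 301 and 321 in B7, so it moved with VTCN1, CD47 and VSIR, and its part in those values was not tested. Of 6 fibroblast and endothelial markers 3 were detected (COL1A1, PECAM1 and CDH5), with a summed signal of 332 to 575 units on the tolerant arrays, against 264 and 286 in B7.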

How the data were processed

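RNA of 6 PC9 clones was labelled as biotinylated cRNA and hybridised to 12 Illumina bead arrays. The deposited non-normalized table holds linear scanner signal intensity with background already subtracted. Its 12 detection p columns are empty. The authors' processed intensity, with values under 20 set to 20, served as an alternative. Their normalization is not given in the sources used here.

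The intensity was corrected by normexp (offset 16), quantile normalized and log2 transformed with limma 3.58.1 in R 4.3.3. Noise was the root mean square of an array's negative values, and a gene was measured by its brightest probe passing the filter. Tolerant clones were compared with B7 on clone means and with each other on arrays (lmFit, eBayes), with Benjamini-Hochberg adjustment over all genes and calls under 0.05. The number of arrays limits precision.

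Genes named were all 7 members, up to 3 called genes per list (or the largest difference), and the 4 (VTCN1) or 2 genes most alike in pattern. CD274 and LGALS9 had no tested probe to compare. Members and lists were chosen with earlier results of these data known. Alternatives were background correction, offset, scaling, the authors' values, filter, probe choice, intensity trend, blocks, and leaving out arrays or clones.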

Additional observations from a re-analysis of the deposited data

Results flagged for a closer look

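The tolerant clones differed from each other, and so in their distance from B7, for each of the 5 tested members. The limma F test gave an adjusted p of 2.73e-08 for VTCN1, 7.2e-05 for CD47, 0.000739 for PVR, 0.00136 for CD276 and 0.018 for ICOSLG, over ranges of 3.16, 0.95, 0.61, 0.71 and 0.69 log2 units. These p-values rest on the spread between the 2 arrays of a clone. At the main probe all 5 clones stood above B7 for VTCN1 and CD47 and below it for PVR, and CD276 was 0.06 and 0.02 above B7 in E1 and E3 and 0.17 to 0.65 below it in the others.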

How the results depend on the processing

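Against B7, VTCN1 stayed between 5.26 and 7.07 log2 units and CD47 between 1.51 and 2.21 over 25 alternatives, and PVR between -1.06 and -0.38. The number of members past the threshold in that comparison, 2, is no test of them. It became 1 with an offset of 50 and 0 with the authors' values, and was 0 to 2 when 1 tolerant clone was left out (0 without D6, E1, E3 or E6) and 2 when 1 array was. The 5 calls among related genes became 1 without background correction, 1 with an offset of 50, 1 with the authors' values, 3 with median scaling and 11 with the clone as a random block, and 1 to 9 when a clone was left out. Over all genes the 347 calls became 1785 with the clone as a random block and 82 to 2125 when a clone was left out. With median scaling 28.6% of all calls were higher, against 49.3%, and with the authors' values 40.1%. Among the tolerant clones, 4 or 5 of the 5 members passed under every alternative run. Without the filter CD274 and LGALS9 were tested as well, and neither passed the F test. The 16 calls of single clones against the other 4 became 9 without the filter, which adds genes to the adjustment. They became 12 to 15 when an array was left out. When a clone was left out, which also removes its own comparisons, they became 8 to 14. PVR in D6 turned from 0.23 to -0.05 with median scaling. The call of CD47 in E3 (0.22) ended in 15 of 24 alternatives and that of PVR in D6 in 11, the change of sign included. The causes were not tested. Replicate numbers did not pair the arrays (correlations of same-numbered deviations of -0.02 to 0.05 over 15 pairs of clones). With the replicate block 5 members passed the F test and 15 of the single-clone calls remained. The differences of 1 log2 unit or more from B7 were 11, and 10 to 12 over the alternatives that kept all clones. Leaving out a clone removes its own comparisons from this count, and 8 or 9 then remained. CD274 and LGALS9 lay too close to the detection limit to pass the filter, and the ICOSLG call among the clones is of a probe near that limit.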

Other observations

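The 3 BTN3A genes, butyrophilins that present phosphoantigen signals to gamma delta T cells, were above B7 in every tolerant clone without passing the test between clones. They were chosen after their values were seen. BTN3A1 averaged 7.10 ± 0.51 log2 units in the tolerant clones (SD, n = 5) and 5.76 in B7 (limma adjusted p = 0.136), and was detected on 10 tolerant arrays and 1 B7 array. BTN3A2 averaged 7.05 ± 0.44 in the tolerant clones and 5.72 in B7, at least 2.14-fold higher (limma adjusted p = 0.11), and BTN3A3 was at least 1.37-fold higher (limma adjusted p = 0.188). The probes of both were detected on 0 B7 arrays. These genes are close copies of each other, so their probes may share signal. MICB, a stress ligand for the NK cell receptor NKG2D, lay in the other direction, at 8.48 ± 0.47 in the tolerant clones and 9.67 in B7 (-1.20 ± 0.42 SE, limma adjusted p = 0.147), below B7 by 0.49 to 1.62 in the single clones.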
